A study of Mus musculus with 8 samples.

Results

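The 8 genes described here encode thrombospondins and proteins that share their repeats. They are Thbs1, Thbs2, Thbs3 and Thbs4, and Thsd1, Thsd4, Thsd7a and Thsd7b, whose names stand for a thrombospondin domain. They were read by name from a table of 23337 genes, in which all 8 were present, and all 8 had a mean normalised read count of at least 10 and were tested among 13692 genes. The set was chosen by name around Thsd7a, which had been picked by its lower level in mutants in these same libraries. That contrast therefore describes the members and tests nothing about them.

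Whole kidneys were taken from E13.5 mouse embryos (days after mating) on a mixed C57BL/6 background, and 4 libraries were made for each of 2 groups. The control group was Smo(flox/+), with a floxed and a normal copy of Smo, and carried no Cre by its label. The mutant group was Foxd1Cre;Smo(flox/-), with a floxed copy, a null copy and Cre recombinase driven by Foxd1, a gene of renal stromal progenitors. Both groups thus carried a floxed copy, whereas every mutant cell lacked 1 copy of Smo and recombination was directed to stromal cells and their descendants, so a difference belongs to the whole genotype. Smo encodes Smoothened, which passes the hedgehog signal into the cell.

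Thrombospondins are secreted glycoproteins that bind both matrix and cell surface receptors. Thbs1 and Thbs2 form trimers, carry type 1 repeats and inhibit the growth of vessels, and Thbs1 can activate latent TGF-beta. Thbs3, Thbs4 and the cartilage protein Comp form pentamers and lack the type 1 repeat. The Thsd proteins hold type 1 repeats in other settings. Thsd1 is a membrane protein of endothelial cells, Thsd4 (also called ADAMTSL6) binds fibrillin microfibrils, and Thsd7a is a large membrane protein of podocytes that is known as a target of autoantibodies in membranous nephropathy. Thsd7b is its closest relative.

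Libraries held 10288191 to 13494079 reads in genes. Smo stood at 2241 ± 66.4 (SD, n = 4) in controls and 537 ± 20.01 in mutants, so the libraries matched their labels. Foxd1 was at 1477 ± 473 in controls and 593 ± 137 in mutants. Markers of embryonic kidney were present. Six2 of nephron progenitors was at 1678 ± 190.4 in controls and 2138 ± 135 in mutants. Ret of the ureteric bud was at 704 ± 78.1 and 883 ± 77.5. Nephron progenitor genes, 12 in all, summed to 13727 to 15661 in controls and 17104 to 17819 in mutants. Ureteric bud genes, 14 in all, summed to 10278 to 12304 and 11447 to 14191. Nphs1, a marker of mature podocytes, was near 0, at 0 to 16.2 over the 8 libraries. Some libraries stood apart in RNA of other tissues. The summed count of 16 skeletal muscle genes was highest in control 2 (4841), followed by mutant 2 (2819) and control 1 (935), and ranged from 280.04 to 524 in the other libraries. Liver transcripts, summed over 12 genes, reached 948 in control 1 and 79.9 to 257 elsewhere. The labels do not say that samples came from separate embryos, and if they did not, the p-values do not measure spread between embryos.

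Promoter windows, from 250 bases before to 50 bases after the RefSeq start on GRCm38.p6, were found for 7 of the 8 members. Windows are shown for Thsd7a, because its groups lay farthest apart, and for Thbs2 and Thbs4. Thbs2 and Thbs4 were chosen because both were highest in control 2, a library rich in muscle RNA. Thsd7a and Thsd7b were highest there too. Capitals mark the E-box CANNTG, the motif of basic helix-loop-helix factors. The Thsd7a window is chr6:12749204-12749503 on the minus strand, that of Thbs2 is chr17:14694213-14694512 on the minus strand and that of Thbs4 is chr13:92794769-92795068 on the minus strand.
Thsd7a: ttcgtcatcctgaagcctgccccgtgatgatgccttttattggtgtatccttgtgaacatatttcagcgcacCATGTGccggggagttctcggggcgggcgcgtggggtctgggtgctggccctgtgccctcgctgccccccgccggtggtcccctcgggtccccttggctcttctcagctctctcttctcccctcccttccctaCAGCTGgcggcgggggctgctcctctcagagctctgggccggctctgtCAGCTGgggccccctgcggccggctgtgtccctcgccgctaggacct
Thbs2: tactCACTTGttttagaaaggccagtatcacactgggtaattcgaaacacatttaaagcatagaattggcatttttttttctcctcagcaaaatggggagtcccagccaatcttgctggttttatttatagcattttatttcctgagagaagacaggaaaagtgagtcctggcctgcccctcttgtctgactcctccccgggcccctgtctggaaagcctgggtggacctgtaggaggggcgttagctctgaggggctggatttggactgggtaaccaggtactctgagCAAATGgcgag
Thbs4: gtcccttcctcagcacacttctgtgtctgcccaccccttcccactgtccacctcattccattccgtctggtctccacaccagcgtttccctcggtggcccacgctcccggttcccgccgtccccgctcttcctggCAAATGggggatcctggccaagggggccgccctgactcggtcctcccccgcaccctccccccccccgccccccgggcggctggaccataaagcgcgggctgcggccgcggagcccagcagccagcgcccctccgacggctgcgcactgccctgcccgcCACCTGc
The E-box occurred 3 times in the Thsd7a window and 2 times each in those of Thbs2 and Thbs4. It is common, with a match in 72.3% of 32851 promoter windows. The Gli motif GACCACCCA, searched on both strands, was found in 0 of the 8 windows of the members and in 0.253% of all windows. TATAAA was found once, on the opposite strand of the Thbs2 window, and in 13.6% of all windows on either strand. Matches of the 3 motifs did not overlap. The Thsd7a window was 66.7% G and C with 19 CG pairs and the Thbs4 window 72.0% with 24, against a median of 52.7% and 7 over all windows. The Thbs2 window was lower, at 48.3% with 4. These are properties of the letters and say nothing of which factors bind there.

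Levels of different genes were compared per length, as reads per kilobase of annotated exon with every library scaled to the same total of reads in genes (the RPKM scale, computed from the recovered reads). Thsd4 was the most abundant, at 11.9 ± 0.391 (SD, n = 4) in controls and 13.2 ± 0.730 in mutants. Thbs1 followed, at 10.8 ± 0.369 and 10.5 ± 1.19. These were the only members whose mean over 8 libraries lay above the median of tested genes (6.59 over 12402 genes). Thbs3 (4.64 ± 0.420 in controls), Thsd1 (3.27 ± 0.0864) and Thbs2 (4.31 ± 2.21) formed a middle group. Thbs4 (1.26 ± 1.07) and Thsd7a (1.01 ± 0.114) were lower, and Thsd7b was lowest at 0.179 ± 0.0722. The pentameric thrombospondin gene Comp, which is not a member, was lower still at 0.0714 ± 0.0802.

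In this order only 2 steps separated neighbours without overlap of their 8 values, from Thbs1 to Thbs3 and from Thsd7a to Thsd7b. Thsd4 was nonetheless above Thbs1 in 8 of 8 libraries, and Thbs2 above Thbs4 in 8 of 8. Thsd1 and Thbs2 could not be ordered, with Thsd1 higher in 5 of 8. The same held for Thbs4 and Thsd7a, with Thbs4 higher in 5 of 8. Exon lengths were the union over all annotated transcripts, 13986 bases for Thsd4 and 13737 for Thsd7a against 3289 for Thbs4. For a gene with unused annotated exons, such a level is too low.

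**Figure D1:**
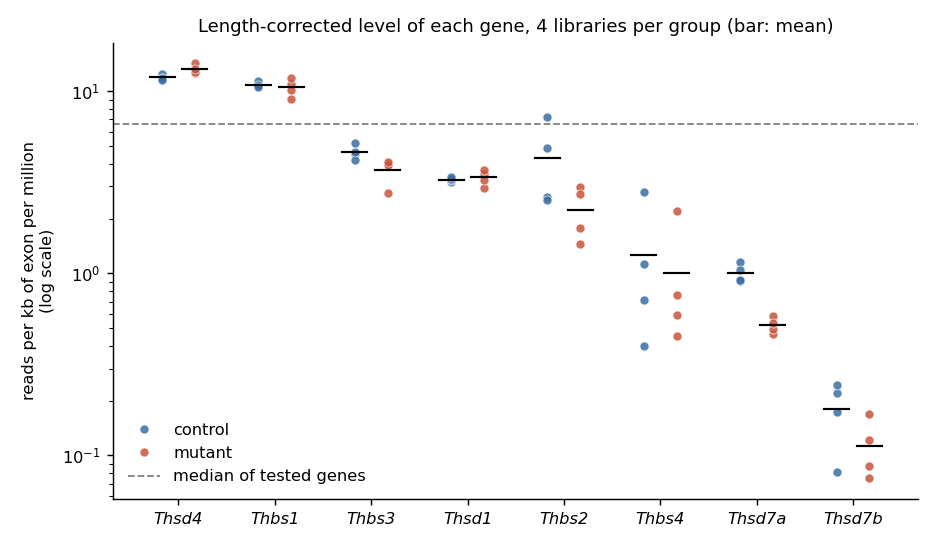
Reads per kilobase of annotated exon at a common library size (log axis) for the 8 genes in order of their mean, with 4 control and 4 mutant libraries as points, group means as bars and the median of tested genes as a dashed line. Thsd4 and Thbs1 lie above the dashed line, Thsd7b lies lowest, and only Thsd7a shows a wide gap between its control and mutant points on this scale.

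Mutants were then compared with controls, to see how these transcripts differ between the genotypes as a whole. Every fold change is the log2 ratio, mutant to control, of normalised read count + 1, a scale that understates changes of low genes. The p-values came from limma and were adjusted over all tested genes by the Benjamini-Hochberg method. In this fit 1 member was called lower at an adjusted p under 0.05 and 0 were called higher, where 0.446% of all tested genes were called lower and 0.124% higher. Control and mutant values did not overlap for 3 members. Thsd7a and Thbs3 lay lower in mutants, as did 3.00% of all tested genes, and Thsd4 lay higher, as did 2.31%. Of the 8 fold changes 6 were below 0 and 2 above, with a median of -0.29 against 0.0037 for all tested genes. Because the members were chosen on this contrast, nothing is read from these counts.

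**Figure D2:**
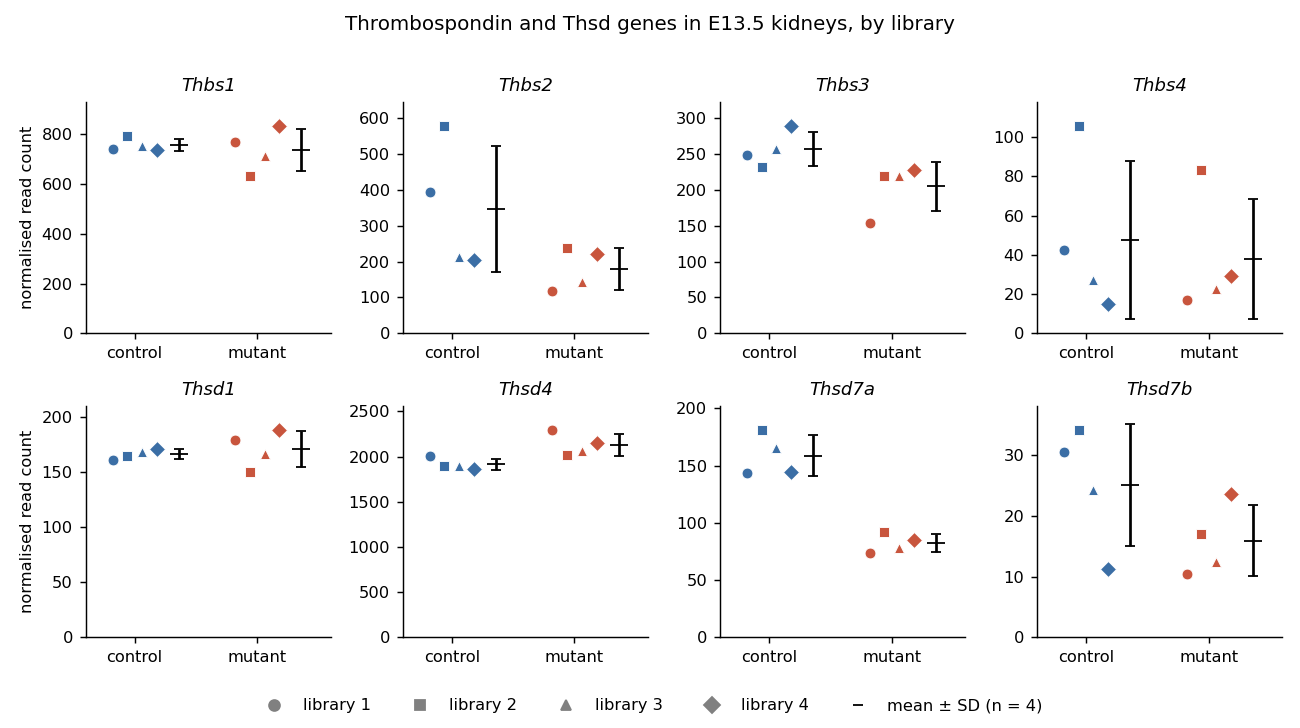
Normalised read count (linear axis from 0) of each gene in the 4 control and 4 mutant libraries, with the library number as the symbol and the mean ± SD in black. Thsd7a separates the groups widely, Thbs3 and Thsd4 narrowly, and the square of library 2 is the highest point of Thbs4 in both groups.

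Thsd7a, on chromosome 6 from 12311608 to 12749253 of GRCm38, showed the widest separation. Its normalised read counts were 144, 181, 166 and 145 in controls 1 to 4 and 73.5, 91.6, 78.4 and 84.8 in mutants 1 to 4. Every mutant lay well below every control, and the spread within each group was small. The mean went from 159 ± 17.9 (SD, n = 4) to 82.1 ± 7.84, which is 51.7% of the control level. In the fit the log2 fold change was -0.94 (SE 0.112, 95% interval -1.19 to -0.69, adjusted p = 0.0064), the 6th smallest p of all tested genes. The authors' deposited table gave Thsd7a an adjusted p of 8.03e-07. These values rested on 154 to 175 reads in controls and 70 to 86 in mutants. In bulk RNA, fewer cells that express a gene and less RNA per cell cannot be told apart.

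The Thsd7a call held in all 8 fits that left out 1 library, with log2 fold changes from -0.995 to -0.877 and adjusted p up to 0.0319, reached without control 3. Without both libraries numbered 2, which had the most muscle RNA, the log2 fold change was -0.93 and the call was lost (adjusted p = 0.0671), in a fit that called 2 genes in all. With the level of muscle transcripts as a covariate it was -0.90 (adjusted p = 0.0039). The Thsd7a level was also highest in library 2 of each group, as the plot against muscle transcripts shows.

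Podocyte transcripts, the known site of Thsd7a protein in the mature kidney, were set beside this difference. The podocyte list held 12 genes, of which 10 were tested and 0 were called. A count of 0 says little where 0.446% of all tested genes were called lower and 0.124% higher. The podocyte genes summed to 8170 to 9061 in controls and 8203 to 8989 in mutants, so the ranges lay almost on top of each other. Renal stroma transcripts, 19 genes, summed to 42755 to 56831 in controls and 38057 to 46859 in mutants. Of 18 tested stroma genes 2 were called lower, against 0.446% of all tested genes, and 0 higher, against 0.124%. The part of these cell types in the Thsd7a difference was not tested.

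Thsd7a lies 16.99 Mb from Smo on the same chromosome. Mutants inherited the Smo null chromosome and controls did not, so sequence linked to the null allele and the loss of Smo cannot be told apart by design. Within 20 Mb of Smo, leaving out Smo, 5 of 161 tested genes were called (3.11%), 3 lower and 2 higher. Thsd7a was among the 3 and, having been picked on this same contrast, adds to that share by choice. On the rest of the chromosome 4 of 529 were called (0.756%), and 0.567% of all 13584 tested genes with a RefSeq position. Of the 5 tested genes within 1 Mb of Thsd7a 0 were called, which says little where 0.567% of all were. Their log2 fold changes ran from -0.11 for Tmem106b to 0.05 for Phf14.

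Genes that tracked Thsd7a most closely over the 8 libraries were named by Pearson's r of log2 values, as a description with no test. These were Sertad4 (r of 0.99), Pdlim7 (0.98) and Dock11 (0.98). Each separated the groups, which so high an r with a gene as widely separated as Thsd7a largely fixes in advance. Sertad4 was 530.5 ± 29.4 in controls and 369.5 ± 21.5 in mutants, and Dock11, a guanine nucleotide exchange factor, was 1594 ± 74.5 and 1126 ± 97.1. When each value was taken as its deviation from the group mean, the closest genes were Nars2, Slc15a3 and Npas2 (r of 0.97, 0.97 and 0.96). None of the latter 3 separated the groups.

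Thsd7b, the relative of Thsd7a on chromosome 1, was at the edge of detection. Its normalised read counts were 30.6, 34.1, 24.2 and 11.3 in controls and 10.5, 17.04, 12.3 and 23.6 in mutants. The groups overlapped, with control 4 among the lowest values and mutant 4 among the middle ones. The log2 fold change was -0.58 with a 95% interval from -1.38 to 0.21 (adjusted p = 0.749). It rested on 11 to 36 reads per library, with an SD of 40.1% of the mean in controls and 36.9% in mutants. A difference of the size seen for Thsd7a lies inside this interval. What counting error and differences between libraries each add to the spread was not tested.

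Thsd4, which spans more than 0.5 Mb of chromosome 9, was the member that lay higher in mutants. Control values were 2005, 1899, 1896 and 1862.5 and mutant values 2289.9, 2020.2, 2062 and 2148. The groups did not overlap, but the lowest mutant lay close to the highest control. The log2 fold change of 0.15 (SE 0.0437, 95% interval 0.06 to 0.25, unadjusted p = 0.0050) missed the threshold after adjustment (adjusted p = 0.214). Its sign was the same in all 21 other settings, from 0.12 to 0.18. Fbn1, which encodes the fibrillin bound by Thsd4, was at 1734 ± 49.2 in controls and 1523 ± 205 in mutants (adjusted p = 0.483).

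For Thsd1, the endothelial member on chromosome 8, values were 161, 164, 169 and 171 in controls and 179.5, 150.15, 167 and 188 in mutants. The mutant values spread to both sides of the controls, at 171 ± 16.4 against 166 ± 4.57. The 95% interval of the log2 fold change, -0.15 to 0.23, leaves room for changes of that size in either direction (adjusted p = 0.951). Of 13 endothelial markers 0 were called, which says little where 0.446% of all tested genes were called lower and 0.124% higher. Their log2 fold changes lay below 0 for 10 and above for 3, with a median of -0.08. Their summed counts were 6441 to 7599 in controls and 5689 to 7311 in mutants.

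Among the trimeric thrombospondins, Thbs1 on chromosome 2 was abundant and even. It was at 743, 792, 755 and 736 in controls and 769.7, 634, 711 and 832 in mutants, with mutants on both sides of the narrow control range. Means were 757 ± 24.7 and 737 ± 84.7, and the log2 fold change was -0.04 with a 95% interval from -0.21 to 0.12 (adjusted p = 0.924). Thbs1 is known to respond quickly to serum and to handling. Immediate early genes, 17 in all, summed to 3219 to 3421 in controls and 2992 to 3281 in mutants. Of 14 tested, 1 was called lower, against 0.446% of all tested genes, and 0 higher, against 0.124%. Platelets also store Thbs1 protein. Megakaryocyte and platelet genes were low, with 11 genes summing to 104 to 151 in controls and 80.7 to 119 in mutants and Pf4 at 16.9 to 44.5.

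Thbs2, on chromosome 17, varied more than any other member except Thbs4 as a share of its control mean. Controls were at 393, 577, 213 and 203 and mutants at 117, 239, 142 and 220.2. Controls 1 and 2 stood high, while controls 3 and 4 fell inside the mutant range. Means were 346.5 ± 177 and 179.6 ± 58.8, so the mutant mean was 51.8% of the control mean, nearly the ratio of Thsd7a, but the control SD was 51.0% of its mean against 11.3% for Thsd7a. The log2 fold change of -0.87 (SE 0.325, 95% interval -1.58 to -0.15) was not called (adjusted p = 0.424). Without controls 1 and 2 it was -0.27 (adjusted p = 0.792), and with the muscle covariate it was -0.66 (adjusted p = 0.197).

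From high to low, Thbs2 ranked the controls as 2, 1, 3 and 4. The summed muscle genes ranked them the same way, and so did the summed stroma genes, at 56831, 51396, 46889 and 42755, and 14 summed macrophage genes, at 1320.1, 1027.5, 858 and 712. In mutants the orders of the sums differed. Mutant 2 was highest in Thbs2 and muscle, mutant 4 was highest in stroma, and mutant 1 was lowest in Thbs2 and stroma. Macrophage sums were nearly equal in mutants 4 and 2, at 880.7 and 876.4. By mean log2(value + 1) of macrophage genes, mutant 2 was above mutant 4 (5.66 against 5.63). Over 8 libraries Thbs2 had an r of 0.97 with the mean log2 level of stroma genes, 0.93 with macrophage genes and 0.78 with muscle genes. The genes closest to Thbs2 over 8 libraries were Rtl1 (r of 0.99), Antxr1 (0.99) and Cdon (0.99), the last a co-receptor for hedgehog ligands. Cdon was at 977.8 to 1373 in controls and 889 to 1065 in mutants, so its groups overlapped too. The part of stroma, macrophages or muscle in the Thbs2 spread was not tested beyond the fits given.

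Of the pentameric thrombospondins, Thbs3 on chromosome 3 lay lower in mutants. Its values were 249, 233, 257 and 289 in controls and 154, 219, 219.55 and 228 in mutants. Mutant 1 stood well below the rest, and the other mutants lay just under the lowest control. The means were 257 ± 23.5 and 205 ± 34.45, and the log2 fold change of -0.34 (SE 0.123, unadjusted p = 0.0192) was not called (adjusted p = 0.406). Without mutant 1 it was -0.20 (adjusted p = 0.590). Exons of Thbs3 share 318 bases, 6.59% of its exon length, with Mtx1 on the opposite strand, so reads there cannot be assigned without strand. Mtx1 was at 429.8 ± 9.70 in controls and 457 ± 16.9 in mutants (adjusted p = 0.709). For Thbs1 the shared length was 208 bases, with the long noncoding gene Gm29233.

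Thbs4, a matrix protein of tendon and muscle encoded on chromosome 13, was at 42.5, 105, 27.1 and 15.04 in controls and 17.2, 83.1, 22.4 and 29.0 in mutants. Libraries 2 were highest in both groups, and control 1 came next, which is also the order of the 3 libraries with the most muscle RNA. The log2 fold change was -0.24 with a wide 95% interval from -1.49 to 1.01 (adjusted p = 0.951). It was 0.16 with the muscle covariate, 0.25 without control 2 and 0.60 without controls 1 and 2, so its sign was not fixed. The genes closest to it over 8 libraries were Ablim3, Smyd1 and Ldb3 (r of 0.98 each). Smyd1 and Ldb3 are genes of striated muscle, and Smyd1 was at 102 in control 2 and 54.3 in mutant 2 but at no more than 23.8 elsewhere. In summed count, markers of tendon and cartilage did not share this order. Their 12 genes summed to 2065 in control 1, 2441 in control 2, 2374 in mutant 2 and 2153 to 2700.0 elsewhere. Their mean log2(value + 1) was nonetheless highest in library 2 of each group, at 5.49 in control 2 and 5.53 in mutant 2. The other controls were at 5.27 to 5.43 and the other mutants at 5.08 to 5.51. The part of tendon or muscle cells in the Thbs4 level was not tested. Thbs4 lies 5.56 Mb from Foxd1, the gene named in the Cre label. The labels do not say whether Cre sits at that locus. Of 13 tested genes within 1 Mb of Thbs4, 0 were called. That says little where only 0.567% of all tested genes with a RefSeq position were called. Log2 fold changes of the 13 ran from -0.47 to 0.06. Within 20 Mb of Foxd1, 1 of 131 tested genes was called lower and 1 higher (1.53%).

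**Figure D3:**
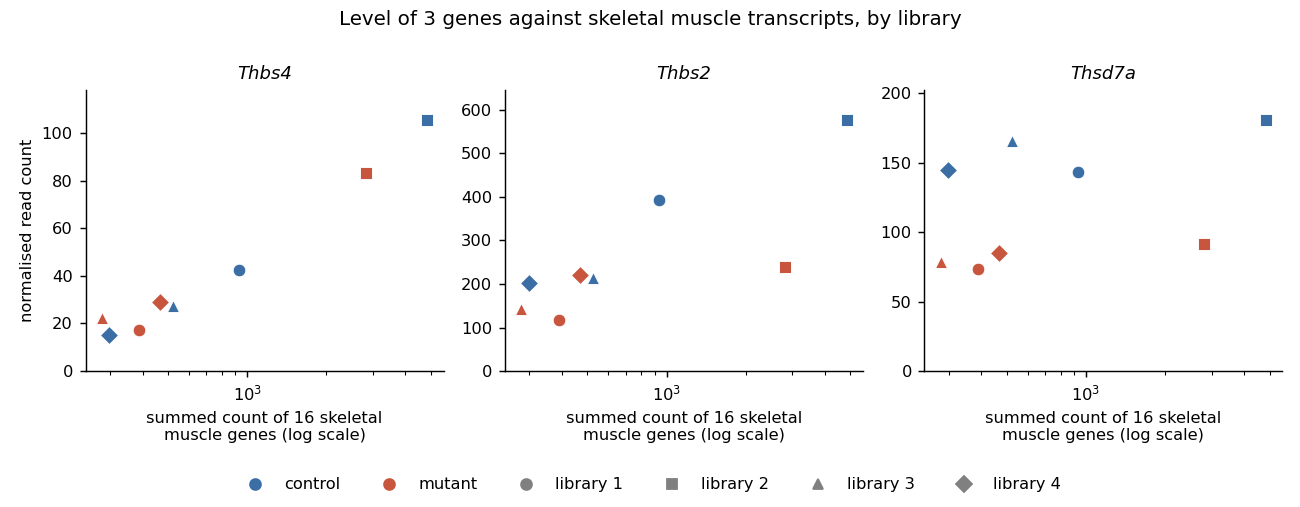
Normalised read count of Thbs4, Thbs2 and Thsd7a (linear axis from 0) against the summed count of 16 skeletal muscle genes (log axis) in each library, coloured by group with the library number as the symbol. Thbs4 climbs with muscle transcripts in both groups, Thbs2 is highest in controls 2 and 1, and Thsd7a keeps its control and mutant points apart at every muscle level.

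The remaining members were described in the same way by their closest genes over 8 libraries. For Thbs1 these were Zfp935, Stat4 and Icam2 (r from 0.94 to 0.96), and for Thbs3 Slc38a4, Hivep3 and Trpm3 (0.96 to 0.97). They were B3galt6, Kcnk2 and Dtwd2 for Thsd1 (0.92 to 0.95), and Atf6b, Me2 and Zc3h7b for Thsd4 (0.95 to 0.98). Furin, Sesn1 and 2810055G20Rik came closest to Thsd7b (0.96 to 0.99). With 8 libraries and 13692 genes, high values of r arise readily and share library composition.

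Genes of proteins that bind or modify the members were counted from 4 lists, and since 0.446% of all tested genes were called lower and 0.124% higher, a count of 0 in a short list says little. Of 23 cell surface partners, all tested, 0 were called, with a median log2 fold change of -0.05. The nearest to a call was Itga4, an integrin subunit, at 609.9 ± 43.8 in controls and 466 ± 64.2 in mutants (log2 fold change -0.39, adjusted p = 0.109). It passed with DESeq2 (adjusted p = 0.0101) and without mutant 4 (0.0312). The receptor genes Cd36 and Cd47 were at 125 ± 11.98 and 294 ± 21.4 in controls and at 119 ± 28.2 and 262 ± 23.6 in mutants (adjusted p = 0.915 and 0.626). The integrin gene Itgb5 differed by 0.18 on the log2 scale (adjusted p = 0.421) and Lrp1, an endocytic receptor that clears thrombospondins, by -0.18 (adjusted p = 0.476). Of the enzymes that add sugars to type 1 repeats, 0 of 5 tested were called, with B3galtl, Dpy19l3 and Dpy19l1 at log2 fold changes of -0.09, -0.10 and -0.04 (adjusted p = 0.701, 0.836 and 0.851).

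The partner lists were written with earlier results of these data known, so their counts are a description. In the list of matrix and growth factor partners the median log2 fold change was -0.16. Of its 21 tested genes 0 rose, 18 did not pass and 3 fell, against 0.446% of all tested genes. They were Fn1, which encodes fibronectin (8524 ± 328 to 6375.5 ± 716, log2 fold change -0.43, adjusted p = 0.0218), and the ligand genes Tgfb2 (731 ± 52.9 to 474 ± 89.2, adjusted p = 0.0325) and Tgfb3 (673 ± 57.9 to 439 ± 69.2, adjusted p = 0.0207). Leaving out 1 library ended the call of Fn1 in 4 of 8 fits, of Tgfb2 in 6 and of Tgfb3 in 5, for all 3 genes without control 2, control 3, mutant 2 or mutant 3, with adjusted p up to 0.120. Tgfb2 and Tgfb3 were also lost without mutant 1, and Tgfb2 without control 1. Without controls 1 and 2 together, or without both libraries numbered 2, all 3 calls and that of Adamts9 below were lost.

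Among other proteins with type 1 repeats, 43 of 56 in the table were tested, with a median of -0.12. Of these 1 fell, against 0.446% of all tested genes. It was Adamts9, a secreted metalloprotease that cleaves proteoglycans and serves the primary cilium. Its values were 1883, 2030.2, 2002.5 and 2105 in controls and 1501, 1594, 1609.7 and 1748.5 in mutants. Each mutant was below each control, with means of 2005 ± 92.2 and 1613 ± 102 (log2 fold change -0.31, SE 0.0501, adjusted p = 0.0212). That call was lost in 5 of 8 fits, without control 2, control 3, mutant 1, mutant 2 or mutant 3 (adjusted p up to 0.0913). Ism1, a secreted inhibitor of vessel growth, was at 272 ± 18.4 and 336 ± 18.6 (log2 fold change 0.31, adjusted p = 0.101), and Adamts17 at 282 ± 43.6 and 189 ± 34.3 (-0.58, adjusted p = 0.114). Both missed the threshold over all genes, but Adamts17 passed with DESeq2 (adjusted p = 0.0101) and without mutant 4 (0.0346), and Ism1 passed without control 4 (0.0355).

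**Figure D4:**
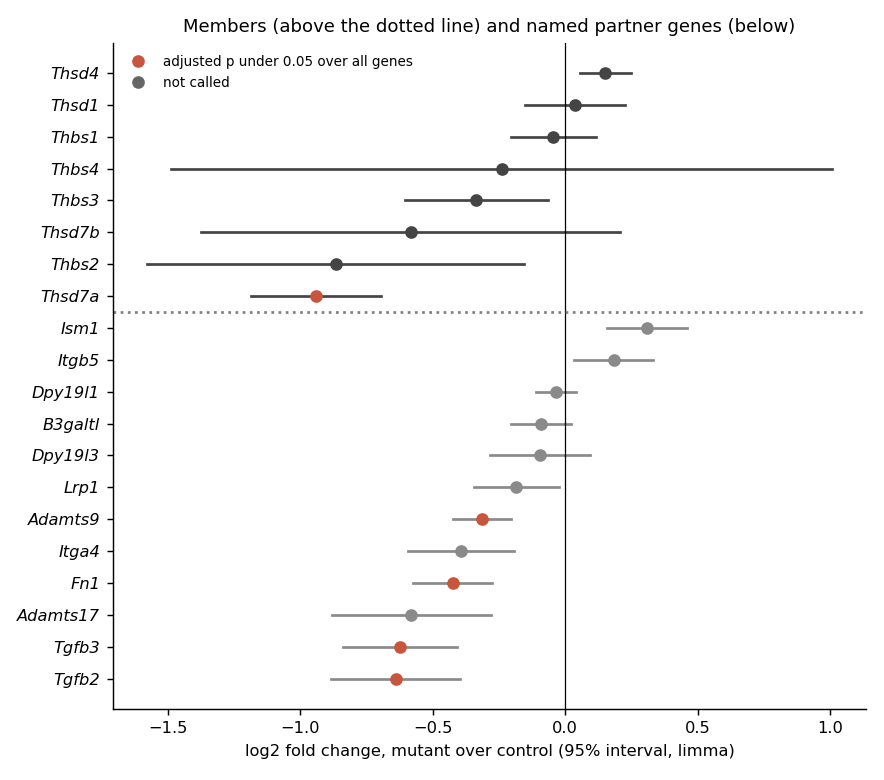
Log2 fold change of mutant over control with its 95% interval from limma for the 8 members (above the dotted line) and the named partner genes (below), with genes called over all tested genes in red. Thsd7a is the member in red, beside the partner genes Adamts9, Fn1, Tgfb3 and Tgfb2, and the intervals of Thbs2, Thbs4 and Thsd7b are the widest among the members.

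**Figure D5:**
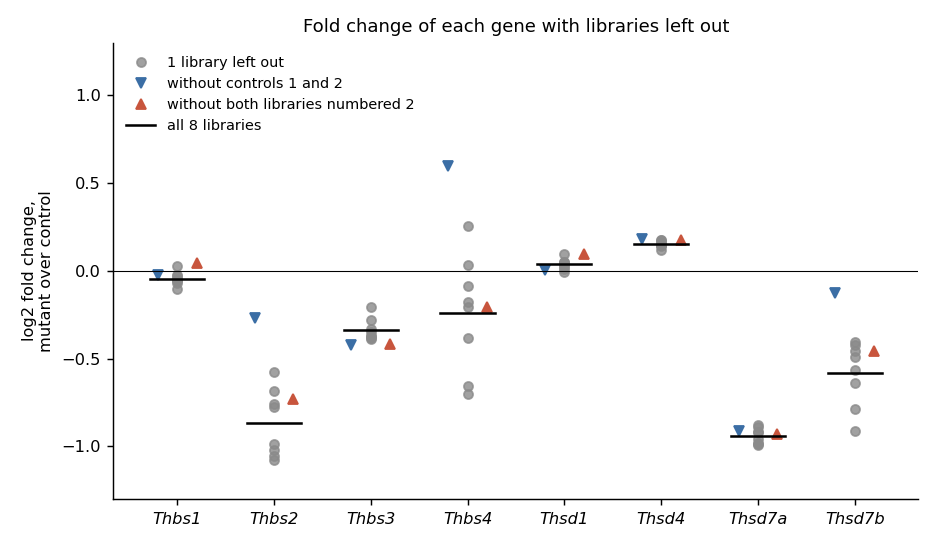
Log2 fold change of each member with all 8 libraries (bar), with each library left out in turn (grey points), without controls 1 and 2 (blue) and without both libraries numbered 2 (red). Thsd7a stays between -0.995 and -0.877, Thsd4 stays above 0 and Thbs3 below it, while Thbs2 and Thsd7b approach 0 without controls 1 and 2 and Thbs4 crosses it.

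Leaving out libraries thus moved the members unequally, as the plot of fold changes with libraries left out shows. Fold changes over the 8 such fits ran from -1.08 to -0.58 for Thbs2, from -0.39 to -0.20 for Thbs3 and from -0.91 to -0.41 for Thsd7b. They ran from -0.70 to 0.25 for Thbs4, from -0.106 to 0.025 for Thbs1 and from -0.0093 to 0.098 for Thsd1.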

How the data were processed

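Poly(A)-selected RNA of E13.5 kidneys was sequenced, 4 libraries per genotype. The tools named in the submitters' processing notes are DESeq2 1.4.5, HTSeq and TopHat2 2.0.12, and the build is mm10 (GRCm38). For the gene annotation, the version was not given in the sources used here, and strand is touched on only by the abbreviation Unstr in the labels, which is not spelled out. The authors deposited signal values, which are gene counts scaled by 1 size factor for each library. All values lay within 0.01 read of a whole multiple of its library's value for 1 read, so whole reads were recovered. The deposited table also holds the authors' mean signal, ratio of means (fold change), log2 fold change and p-values.

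Values were tested as log2(value + 1) with limma 3.58.1 (intensity trend, genotype as the single term, two-sided, R 4.3.3) over 13692 genes with a mean of at least 10, with Benjamini-Hochberg adjustment at 0.05. The fit was tested on simulated data. Recovered reads were also tested with edgeR 4.0.16 and DESeq2 1.42.0 as alternatives. No 2 libraries of a group agreed within sampling noise (chi-square over its degrees of freedom, 2.89 to 10.98). Exon lengths and overlaps came from GENCODE vM21, positions and promoters from RefSeq GRCm38.p6. Figures used matplotlib 3.10.9.

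Named genes are the 8 members, called genes and the 3 smallest p of each partner list, the 3 genes with the highest r to each member (for Thsd7a also of deviations), Smo and Foxd1. Fbn1, Cd36, Cd47, Mtx1, Nphs1, Pf4, Six2, Ret, Comp, Tmem106b and Phf14 were named after their values were seen. Members, lists and alternatives were chosen with earlier results of these data known.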

Additional observations from a re-analysis of the deposited data

Results flagged for a closer look

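In mutant 1, Thbs3 was at 153.7 normalised counts against 219.4 to 227.7 in the other mutants, a gap larger than 0.829 of the group's range (0.888). Without mutant 1 its log2 fold change moved from -0.34 to -0.20. This was the only library far from the other 3 among 40 groups of 4 values checked, where chance gives about 2.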

How the results depend on the processing

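Over 21 alternatives, 20 genes were followed in 418 fits, of which 375 kept their direction and side of the threshold, 29 lost a call, 7 gained one and 7 changed sign. Thsd7a was called in 20 of 21, and the count of called members was 1 in each of these and 0 without both libraries numbered 2. Genes called in all numbered 78, and 232 with the sample number as a replicate block, 214 with DESeq2, 29 without controls 1 and 2, 2 without both libraries numbered 2 and 18 to 185 with 1 library left out. Called partner genes numbered 4, and 7 with the block, 9 with DESeq2, 0 without controls 1 and 2, 0 without both libraries numbered 2 and 0 to 7 with 1 library left out. Changes of sign were in Thbs4 (0.16 with the muscle covariate, 0.60 without controls 1 and 2, 0.25 without control 2, 0.03 without mutant 1), Thbs1 (0.047 without both libraries numbered 2, 0.025 without mutant 2) and Thsd1 (-0.0093 without mutant 4). With 1 library left out, log2 fold changes ran from -0.702 to 0.255 for Thbs4, -0.106 to 0.025 for Thbs1 and -0.0093 to 0.0981 for Thsd1. The cause was not tested. Same-numbered samples had correlated deviations in 3 of 4 pairs (0.29 to 0.32) and 0.064 in the 4th, and 6 of 8 libraries matched their own number best, a hint from the data that numbers mark something shared. The labels do not say so and the 4th pair was not above 0.1, so the block stayed an alternative. It called Thsd7a (adjusted p = 0.0015) and no other member, and added calls of Itga4 (0.0488), Adamts17 (0.0165) and Fbn2. Thbs4 and Thsd7b fell below a filter on a mean of at least 50 and had no value there. Thsd7b had the fewest reads, 11 to 36 per library.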
